A study of Mus musculus with 12 samples.

Results

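The 9 genes *Cdh26*, *Cntn6*, *Inadl*, *Il23r*, *Adtrp*, *Mup3*, *Pamr1*, *Tmc2* and *Sfi1* were chosen by their higher RNA in *Mael*-/- testes, from the 20620 genes of the deposited count table. They are 9 of the 16 genes that the RNA comparison called higher without *Mael*, and 0.109% of the 14685 genes tested were called so. Their RNA values are therefore given as a description, with no test, and nothing is supported with them. Ribosome footprints were not used to choose the genes, but they came from the same testis extracts as the RNA.

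The 9 genes have no pathway in common. *Cdh26* and *Cntn6* encode adhesion molecules of the cell surface, *Inadl* a scaffold of tight junctions, *Il23r* a receptor for an inflammatory cytokine, *Adtrp* a membrane-bound lipid hydrolase, *Mup3* a secreted carrier of pheromones, *Pamr1* a secreted protease-like protein, *Tmc2* a subunit of the mechanosensory channel of hair cells and *Sfi1* a protein of the centrosome. Most of these roles are known from epithelia, nerve, immune cells, liver or the inner ear. Maelstrom, the product of *Mael*, is needed in germ cells to make piRNAs, the small RNAs that guide the silencing of transposons such as LINE-1 (L1).

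The study dealt with male germ cells that express L1 at a high level, and one of its questions was how their mRNA levels and translation differ. Total RNA and footprints, the stretches of mRNA that ribosomes shield from a nuclease, were read in whole testes of C57BL/6 mice at postnatal day 16. Animals were either *Mael*+/- or *Mael*-/-, with 3 replicate extracts of each genotype and both assays made from every extract, which gave 12 libraries. All testes were collected in cycloheximide, which holds ribosomes in place. The control animals were heterozygous, so no library came from a mouse with both copies of *Mael*. The testes held somatic cells as well as germ cells, and in such bulk samples fewer cells of a type and less RNA per cell cannot be told apart. The labels do not tie a replicate to a number of animals, and the p-values measure the spread between these extracts.

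*Mael* itself had 5045, 4314 and 3800 RNA counts in the *Mael*+/- libraries and 1, 2 and 0 in the *Mael*-/- libraries. Its footprint counts were 1294, 660 and 863 against 0, 0 and 7. No library went against the genotype of its label. Gene counts summed to between 13697267 and 27462358 in RNA libraries and to between 7609932 and 13233565 in footprint libraries, so the RNA counts of low genes were the better sampled. L1Md_T, a young L1 subfamily, stood at 85.4, 55.9 and 66.5 CPM (counts scaled to 1 M per library) in *Mael*+/- RNA and at 521, 471 and 306 CPM in *Mael*-/- RNA, given here with no test.

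The promoters of the 3 genes that were all but silent in *Mael*+/- testes are shown because 2 features, base composition and TATA motifs, could be read from them. Each sequence is the 250 bases before the annotated start (RefSeq, GRCm38.p6), written 5′ to 3′ on the gene's strand, and capitals mark the motif TATAA on either strand. *Cdh26* lies at chr2:178430265-178430514 on the plus strand, *Il23r* at chr6:67491856-67492105 on the minus strand and *Mup3* at chr4:62087318-62087567 on the minus strand.
Cdh26: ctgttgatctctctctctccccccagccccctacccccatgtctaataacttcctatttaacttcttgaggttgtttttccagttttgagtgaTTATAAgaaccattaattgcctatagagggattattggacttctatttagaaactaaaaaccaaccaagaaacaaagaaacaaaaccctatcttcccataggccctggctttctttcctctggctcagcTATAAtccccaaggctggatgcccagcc
Il23r: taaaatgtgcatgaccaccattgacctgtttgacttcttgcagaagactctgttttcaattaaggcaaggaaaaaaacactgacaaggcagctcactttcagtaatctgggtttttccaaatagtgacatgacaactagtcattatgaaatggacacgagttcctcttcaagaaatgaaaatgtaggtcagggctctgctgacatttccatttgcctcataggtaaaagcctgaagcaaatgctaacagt
Mup3: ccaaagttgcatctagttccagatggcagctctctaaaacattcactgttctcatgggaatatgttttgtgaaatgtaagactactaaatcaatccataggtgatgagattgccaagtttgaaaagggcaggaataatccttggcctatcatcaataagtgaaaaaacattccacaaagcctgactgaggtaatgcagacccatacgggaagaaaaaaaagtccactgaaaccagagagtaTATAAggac

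These promoters were poor in G and C, at 42.8% in *Cdh26*, 39.6% in *Il23r* and 39.2% in *Mup3*, against a median of 52.4% over 32851 mouse promoters of the same length. They held 0, 1 and 1 CpG, against a median of 6. TATAA was found in *Cdh26* and *Mup3*, and in 22.8% of all promoters. Of the genes expressed in both genotypes, *Cntn6* had 45.2% G and C and 3 CpG, and the 2 *Adtrp* promoters had 52.8 and 56.0% with 6 and 5 CpG. *Inadl* had 3 promoters, with 71.2, 48.0 and 46.4% G and C and 23, 6 and 2 CpG, and the first held the GC box GGGCGG, as did 32.7% of all promoters. Low G and C was thus not particular to the silent genes. Promoters of 6 of the 9 genes were matched, all but *Pamr1*, *Sfi1* and *Tmc2*, and the *Adtrp* promoters held the E-box CACGTG (6.02% of all promoters). These matches describe letters and not binding.

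The genes of the cell surface and of cell contacts come first. *Cdh26*, a cadherin of epithelia, had 3, 0 and 0 RNA counts in the *Mael*+/- libraries and 19, 24 and 32 in the *Mael*-/- libraries. Its only control counts were in replicate 1, and the lowest *Mael*-/- library lay above them. The summed counts, scaled by library size, were 31.3-fold higher in *Mael*-/- RNA, with a 95% counting interval of 10.3 to 155. Its footprint counts were 0, 0 and 0 against 23, 19 and 11. That is at least 15.3-fold higher, computed against 3 counts over the control group. The edgeR quasi-likelihood F-test over all genes gave it an adjusted p of 0.0393 in footprints. It entered that test through its *Mael*-/- counts alone, with all controls at 0, so the call is given as a description. The call was lost when any footprint library but *Mael*+/- replicate 1 was left out, and over the alternatives that tested it the adjusted p ran from 0.00458 to 0.262.

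*Cntn6* encodes contactin 6, an immunoglobulin-type adhesion molecule of developing neurons. It had 45, 39 and 44 RNA counts in *Mael*+/- testes and 78, 91 and 135 in *Mael*-/- testes, or 1.68 ± 0.262 against 5.04 ± 0.592 CPM (SD, n = 3). The groups did not overlap, and the log2 fold change was 1.58 (SE 0.22). In footprints the counts were 12, 6 and 9 against 40, 23 and 15. The *Mael*-/- libraries were again all higher, by 1.28 on the log2 scale (SE 0.35), which did not pass the test (adjusted p = 0.75, edgeR). *Cntn6* entered that test through its *Mael*-/- libraries, so the result is given as a description.

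*Inadl*, listed in RefSeq as *Patj*, encodes a scaffold of the Crumbs polarity complex at tight junctions, and it was among the 2 abundant genes of the 9. Its RNA stood at 31.5, 33.7 and 27.4 CPM in *Mael*+/- libraries and at 58.1, 58.9 and 61.0 CPM in *Mael*-/- libraries. The *Mael*-/- libraries varied little, and the step between the groups, a log2 fold change of 0.94 (SE 0.10), was larger than the spread within either. The adjusted p that placed it in the choice, 0.00647, was the lowest of the 9. Footprints moved the same way by less, from 39.0, 36.3 and 32.7 CPM to 57.8, 52.5 and 54.5 CPM. This difference of 0.61 (SE 0.11) on the log2 scale was not called by edgeR (adjusted p = 0.177). The RefSeq genes *Gm35073* and *Gm35137* overlap *Inadl* on the opposite strand.

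*Il23r*, the receptor subunit that T cells and other lymphocytes use to sense interleukin 23, had 1, 0 and 0 RNA counts in *Mael*+/- testes. In *Mael*-/- testes it had 11, 19 and 17. The ratio of 58.9 had a counting interval from 10.1 to 2380, since it rests on 1 control count. Footprints were at 0, 0 and 0 in the controls and at 5, 6 and 9 in *Mael*-/- extracts, at least 5.77-fold higher against 3 counts. These counts were below the filter of the footprint test, so no p-value was obtained.

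*Adtrp*, a lipid hydrolase that also controls an inhibitor of clotting in endothelium, was low but present in both genotypes. Its RNA counts were 4, 7 and 7 in *Mael*+/- libraries and 16, 32 and 31 in *Mael*-/- libraries, and no *Mael*-/- library reached down to a control. Scaled by library size, the sum was 5.50-fold higher, with a counting interval of 3.27 to 9.76. The footprint counts were 3, 2 and 1 against 10, 9 and 6, which is 3.61-fold (1.44 to 10.8). They too were below the filter of the test.

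Of the secreted proteins, *Mup3*, a major urinary protein made chiefly in liver, had no count in any *Mael*+/- library of either assay. Its RNA counts were 13, 34 and 29 in *Mael*-/- testes, at least 31.8-fold higher than 3 counts over the control group. Its footprints were only 5, 1 and 1. The RNA of *Mup3* was thus seen in each *Mael*-/- extract, while its footprints were near the limit of counting. Urinary protein genes are similar in sequence, and reads shared between them were not examined.

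*Pamr1* encodes a secreted protein with a protease-like domain, first described in regenerating muscle. Its RNA counts were 24, 21 and 10 in the controls and 50, 83 and 87 in *Mael*-/- libraries, or 0.729 ± 0.333 against 3.64 ± 0.471 CPM (SD, n = 3). The log2 fold change was 2.32 (SE 0.34). Footprint counts were 16, 10 and 5 against 33, 22 and 22. The groups were apart in CPM, at 0.488 to 1.70 against 2.19 to 2.61. The difference was smaller than in RNA, 1.08 on the log2 scale (SE 0.39), and was not called (adjusted p = 0.998, edgeR). *Pamr1* too entered the footprint test through its *Mael*-/- libraries, so this is a description.

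*Tmc2*, a subunit of the transduction channel of hair cells, went from 3, 10 and 2 RNA counts in the controls to 22, 47 and 43. Replicate 2 was the highest control and was still below every *Mael*-/- library. The log2 fold change was 3.21 (SE 0.47), and 4.11 without that library. Footprints went from 1, 1 and 0 counts to 14, 12 and 12, a ratio of 16.4 with a counting interval of 4.25 to 141. The edgeR adjusted p of this difference was 0.175, given as a description since *Tmc2* entered the test through its *Mael*-/- libraries.

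*Sfi1*, a centrin-binding protein of centrosomes, was the other abundant gene. Its RNA stood at 28.6, 28.7 and 26.2 CPM in *Mael*+/- libraries and at 48.5, 44.7 and 44.3 CPM in *Mael*-/- libraries, a log2 fold change of 0.72 (SE 0.10). Its footprints stood at 24.6, 22.8 and 17.6 CPM against 36.9, 38.5 and 32.7 CPM. The footprint change of 0.74 (SE 0.14) was as large as that of RNA, and it was not called by edgeR (adjusted p = 0.326). *Sfi1* overlaps 6 other annotated genes, among them *Eif4enif1* and the pseudogene *Pisd-ps1* on the opposite strand. Whether the counting used strand was not given in the sources used here, so reads of such neighbors could not be told apart from its own.

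**Figure D1:**
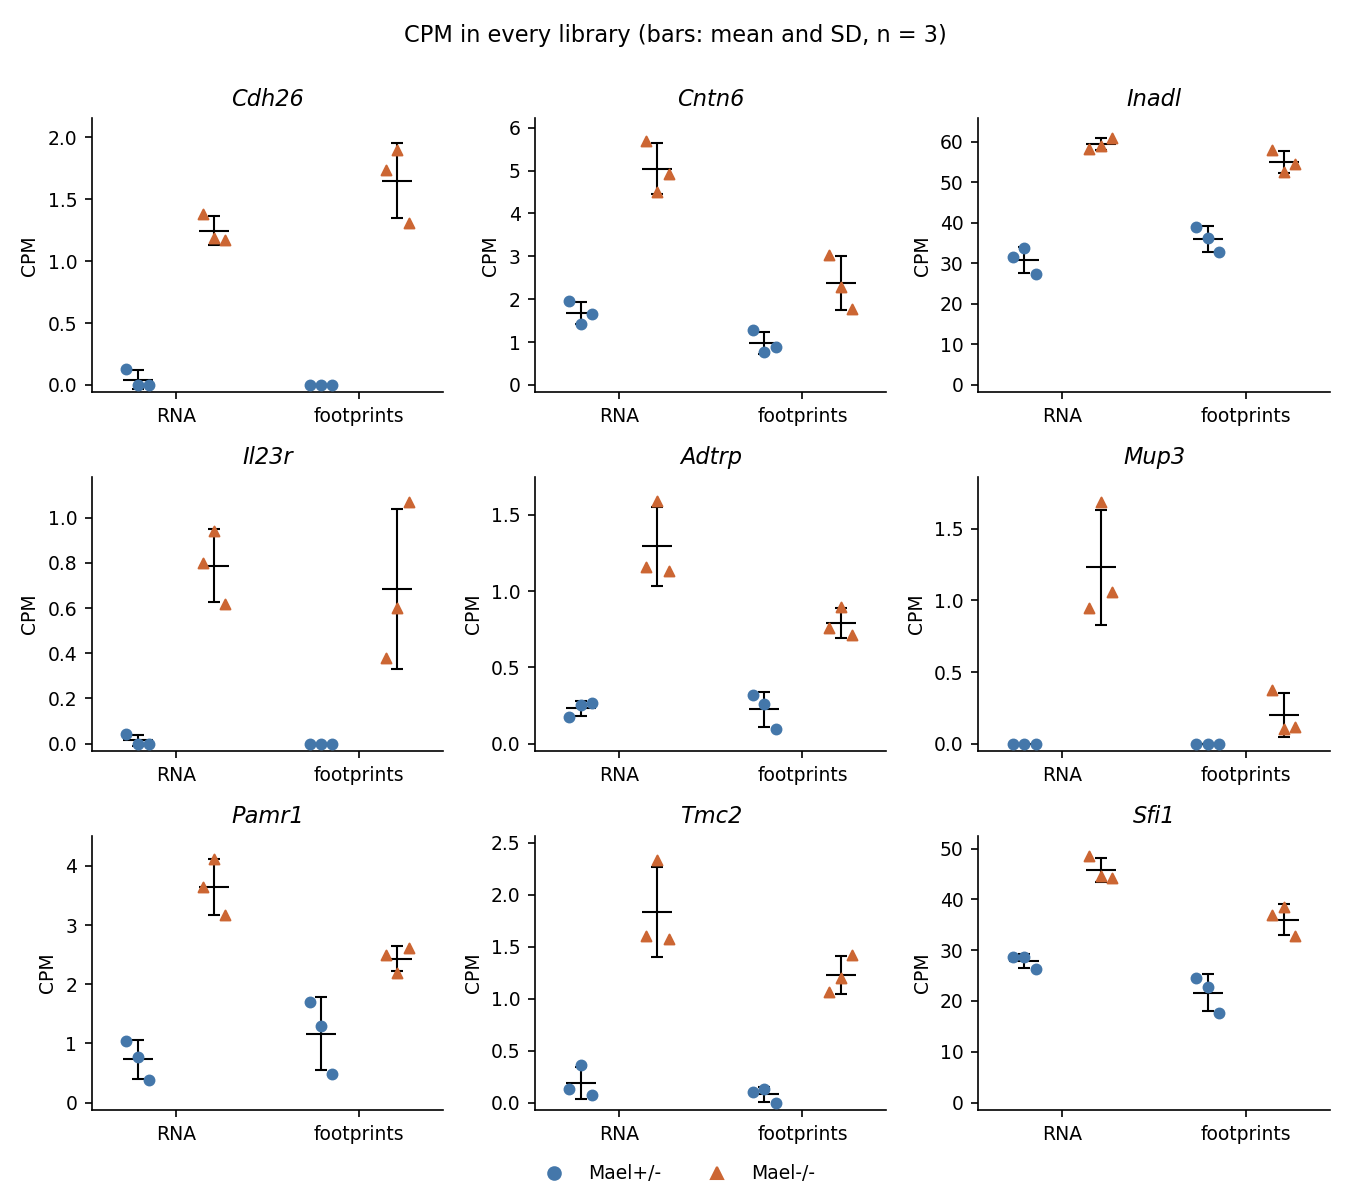
CPM (counts scaled to 1 M per library) of each gene in every library, in RNA and in footprints, with blue circles for *Mael*+/- and orange triangles for *Mael*-/- and with bars for the mean and SD of 3 libraries. Each axis has its own range. In footprints the lowest *Mael*-/- library sits above the highest *Mael*+/- library in all 9 genes, as in 4.24% of the 13500 genes tested. The RNA groups are apart as well, but RNA chose the genes, so nothing is read from that.

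Across the set, the RNA test called 17 of 14685 genes (0.116% of those tested), and 16 of them were higher in *Mael*-/- testes. All 9 genes are among the 16 by choice, and nothing is read from that count. Most lay close to the threshold. *Tmc2* was the last gene inside it at an adjusted p of 0.0444, and *Cdh26*, *Pamr1* and *Adtrp* stood at 0.0434. The first genes outside were *Ros1* (0.0658), *Clca4* (0.0705) and *Sncaip* (0.0809), with log2 fold changes of 3.36, 6.67 and 1.25. The membership of the set depended on single libraries, as did the number of genes called in all. Without *Mael*-/- RNA replicate 1, 2 or 3, 0 of the 9 were called, and 2, 7 and 8 genes in all. Without *Mael*+/- RNA replicate 3 there was 1 of the 9, *Inadl*, of 8 in all. Without *Mael*+/- RNA replicate 2 there were 3 of the 9, of 14 in all. In each of these fits all 9 fold changes stayed positive.

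In footprints the 9 genes were higher in *Mael*-/- testes without overlap between the groups. So were 573 of the 13500 genes tested (4.24%), which do not include *Adtrp*, *Il23r* and *Mup3*. Of the 9, 6 had enough counts to be tested. The edgeR fit called *Cdh26*, and it called 8 genes in all (0.0593%), 7 of them higher (0.0519%). Nothing is read from the count of the 9 against these shares. *Cdh26*, *Cntn6*, *Pamr1* and *Tmc2* passed the filter on low counts through their *Mael*-/- libraries. DESeq2 called more genes throughout, 26 in all (0.149%), of which *Cdh26*, *Inadl* and *Sfi1* were 3. A fit with the replicate number as a block called 23 (0.17%), among them *Cdh26* and *Sfi1*. Without *Mael*+/- footprint replicate 1 there were 17 (0.125%), 3 of them of the 9. Without any of the 5 other footprint libraries 0 of the 9 were called, and 2 to 4 genes in all.

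**Figure D2:**
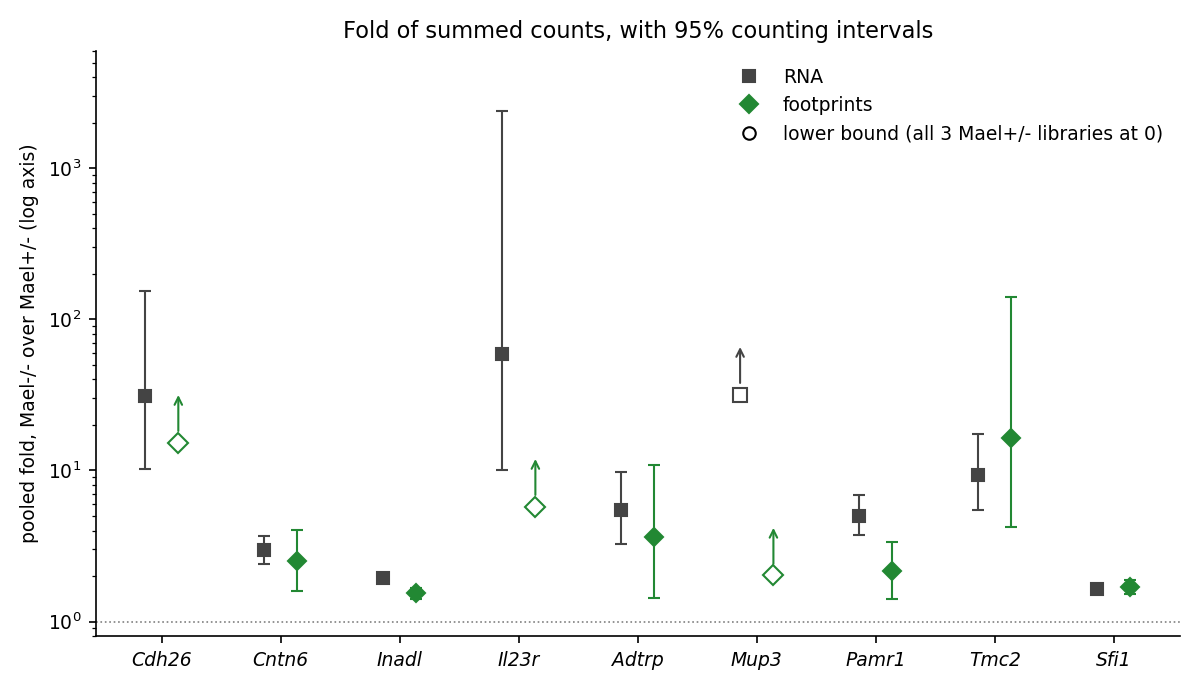
Fold of the summed counts in *Mael*-/- over *Mael*+/- libraries, scaled by library size, for RNA (grey squares) and footprints (green diamonds) on a log axis, with 95% counting intervals. Open symbols with arrows are lower bounds where all 3 *Mael*+/- libraries were at 0, and every value lies above the dotted line at 1.

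Translation efficiency, the change of footprints beyond that of RNA, was compared over all 12 libraries. The RNA that chose the genes enters this measure, so the values are a description. No gene was called by edgeR (0 of 13448, or 0%) or by DESeq2, and an unadjusted p under 0.05 was reached by 53 genes. The log2 change of *Sfi1* was 0.02, with a 95% interval from -0.34 to 0.39, and that of *Cntn6* was -0.29 (-1.16 to 0.58). Both intervals include 0, which does not show that footprints followed RNA, and that of *Cntn6* was wide. *Pamr1* had a change of -1.23 (-2.39 to -0.07) and *Inadl* of -0.33 (-0.63 to -0.03), with intervals from -2.05 to -0.41 and from -0.56 to -0.11 when each extract was a term. These intervals are unadjusted, and a gene chosen for a high RNA difference is by that choice more likely to show a negative value here, so nothing is read from their side of 0. The intervals of *Tmc2* (-1.42 to 2.87) and *Cdh26* (-1.57 to 7.68) were too wide to place the change on either side of 0.

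The number of footprints per RNA, each taken per kilobase, differed widely among the 9 genes. In *Mael*-/- extracts the median of 13392 genes was 0.87 on the log2 scale, with quartiles of 0.43 and 1.41. *Adtrp* had a mean of 1.0 ± 0.10 (SD, n = 3) and *Cdh26* of 0.77 ± 0.26, both inside the quartiles, and *Inadl* was inside them at 0.53 ± 0.09. The other 6 genes were below the lower quartile. *Cntn6* stood at -0.90 ± 0.31, higher than 1.6% of genes, and was low in *Mael*+/- extracts too, at -0.59 ± 0.17. *Tmc2* was at -0.29 ± 0.41, *Pamr1* at -0.18 ± 0.31 and *Sfi1* at 0.16 ± 0.12. *Sfi1* was low in *Mael*+/- extracts as well, at 0.13 ± 0.18. *Il23r* averaged 0.01 but ran from -0.75 to 1.11 between extracts. *Mup3* was lowest, at -0.56, -3.31 and -2.39 in the 3 extracts, higher than 0.6% of genes on average, from 7 footprint counts in all. Without overlap between the genotypes were *Pamr1*, at 0.77 to 1.15 in *Mael*+/- against -0.51 to 0.12 in *Mael*-/-, and *Inadl*, at 0.75 to 0.96 against 0.48 to 0.64. Of 13386 genes with values in all 6 extracts, 477 were lower in *Mael*-/- without overlap (3.56%), and the same RNA that chose the genes enters this ratio.

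**Figure D3:**
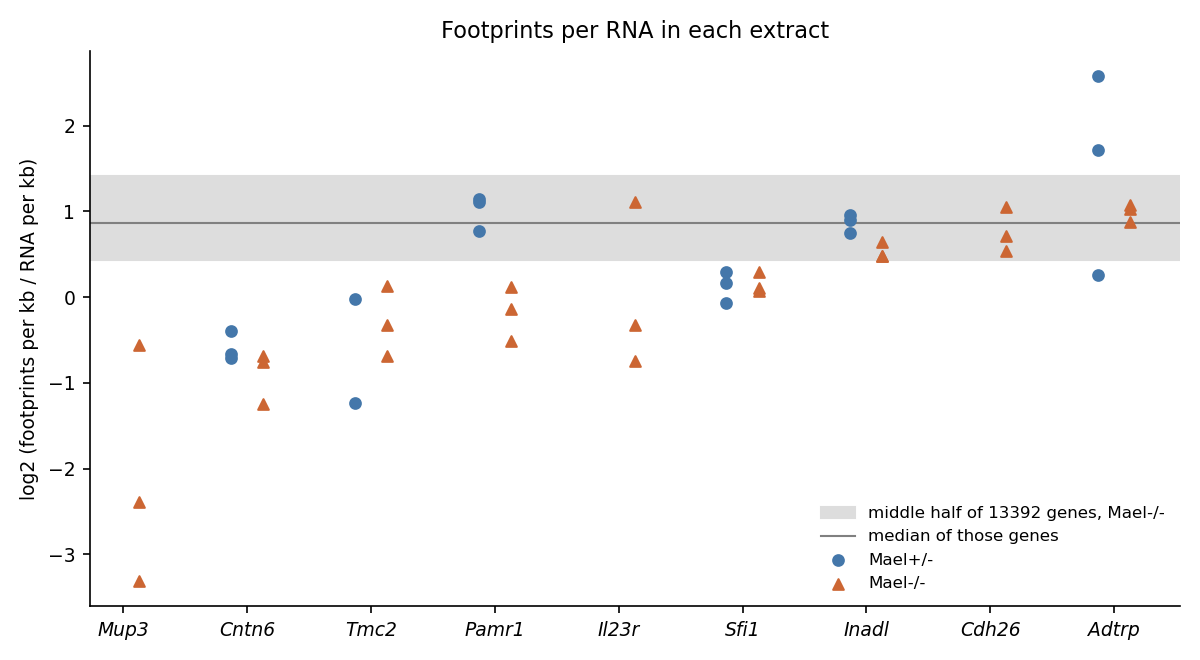
Footprints per kilobase of coding sequence over RNA per kilobase of exon, on the log2 scale, in each extract (blue circles *Mael*+/-, orange triangles *Mael*-/-). The grey band spans the quartiles 0.43 and 1.41 of 13392 genes in *Mael*-/- extracts and the line is their median, and extracts with a count of 0 are not drawn. Every drawn value of *Mup3*, *Cntn6*, *Tmc2* and *Sfi1* lies below the band. The 3 *Pamr1* values of *Mael*-/- extracts lie below those of *Mael*+/- extracts.

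The levels reached without *Mael* were low for most of the genes. Per kilobase of exon, *Sfi1* reached 8.64 ± 0.436 CPM and *Inadl* 6.72 ± 0.169 CPM in *Mael*-/- RNA (SD, n = 3), higher than 41.2% and 35.8% of the genes tested. The 2 did not overlap between libraries. Below them *Cntn6* (1.41 ± 0.165), *Mup3* (1.30 ± 0.422) and *Pamr1* (1.28 ± 0.165) could not be ordered, since their spreads overlap. *Tmc2* (0.57 ± 0.134), *Adtrp* (0.504 ± 0.0989), *Cdh26* (0.418 ± 0.0398) and *Il23r* (0.316 ± 0.0648) followed. Neighbors among *Tmc2*, *Adtrp* and *Cdh26* were within each other's spread, while the *Il23r* libraries all lay below those of *Cdh26*. *Il23r* was higher than 2.3% of genes. In *Mael*+/- RNA *Sfi1* and *Inadl* were already at 5.25 and 3.50 CPM per kilobase, and the other 7 were at 0.469 or less.

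Partners and paralogs of the 9 genes were listed to see whether the rest of each family moved. The lists held 115 genes. In RNA 76 were tested and 0 were called by edgeR, 42 had a positive fold change, and 8 were higher and 1 lower at an unadjusted p under 0.05. That is to be read beside 793 such genes of all tested (5.40%). In footprints 56 were tested and 0 were called by edgeR or by DESeq2, with 0 higher and 2 lower at an unadjusted p under 0.05. Over all genes tested in footprints, 585 reached that (4.33%). DESeq2, which called 66 genes in RNA (0.395% of those it tested), called 2 of the list. These were *Cdh12*, a cadherin, and *C1rb*, a complement protease, named here after their values were seen.

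*Cdh12* had 2, 2 and 0 RNA counts in *Mael*+/- libraries and 14, 16 and 17 in *Mael*-/- libraries. *C1rb* had 4, 2 and 1 against 17, 20 and 17. Both were just outside the edgeR threshold, with adjusted p of 0.0876 and 0.0978. The replicate block, which called 50 genes in all (0.34%), called both (adjusted p = 0.0341 and 0.0255, edgeR). So did the fit without *Mael*+/- RNA replicate 1 (0.019 and 0.0117), which called 64 (0.43%). *C1rb* is a near copy of *C1ra*, which did not move with it (log2 fold change 0.12, SE 0.13), and reads shared between the copies were not examined.

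Around *Cdh26*, 19 of 21 cadherins and catenins were tested in RNA, with a median log2 fold change of 0.01, against -0.001 over all genes. The catenins that hold cadherins to the cytoskeleton were flat, *Ctnnb1* at 0.03 (SE 0.08) and *Ctnna1* at 0.07 (SE 0.09). Around *Cntn6*, 10 of 15 contactins and their partners were tested, with a median of 0.03. The most abundant, the adhesion molecules *Nrcam* and *Cntn3*, had 0.23 (SE 0.09) and -0.18 (SE 0.20), and neither was called (adjusted p = 0.885 and 0.982, edgeR).

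Around *Inadl*, 13 of 14 listed polarity genes were tested, with a median of -0.06. *Prkci*, the polarity kinase, had 0.03 (SE 0.09), and *Mpp5*, which joins the scaffold to Crumbs, had -0.11 (SE 0.20). For *Il23r*, 7 of 13 genes of the interleukin 23 axis were tested, with a median of 0.07. The kinase *Jak2* (0.01, SE 0.08) and the transcription factor *Stat3* (0.07, SE 0.08), which carry its signal, were flat at about 90.2 and 138 CPM in *Mael*-/- RNA. The partner subunit *Il12rb1* was at 1.5 CPM in *Mael*+/- and 1.94 CPM in *Mael*-/- RNA.

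For *Adtrp*, 4 of 6 genes of clotting and of its own family were tested, with a median of 0.13. *F3*, which starts clotting, had 0.26 (SE 0.15), and its inhibitor *Tfpi* had 0.00 (SE 0.11). The *Mup3* list held the other urinary protein genes and *Lcn2*, 20 in all. *Lcn2*, a lipocalin of inflammation, was the 1 tested (0.31, SE 0.33). No other urinary protein gene averaged above 0.0243 CPM in RNA or 0.0395 CPM in footprints in either genotype. For *Pamr1*, 6 of 7 complement-type proteases were tested (median 0.10), with *C1s1* at 0.12 (SE 0.11). For *Tmc2*, 10 of 13 channel genes were tested (median 0.08), with the tip-link cadherin *Cdh23* at 0.04 (SE 0.11) and *Tmc7* at 0.13 (SE 0.11). For *Sfi1*, 6 of 6 centrin and centriole genes were tested (median -0.18), with *Ccp110* at -0.30 (SE 0.21) and *Cetn3* at -0.07 (SE 0.12).

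**Figure D4:**
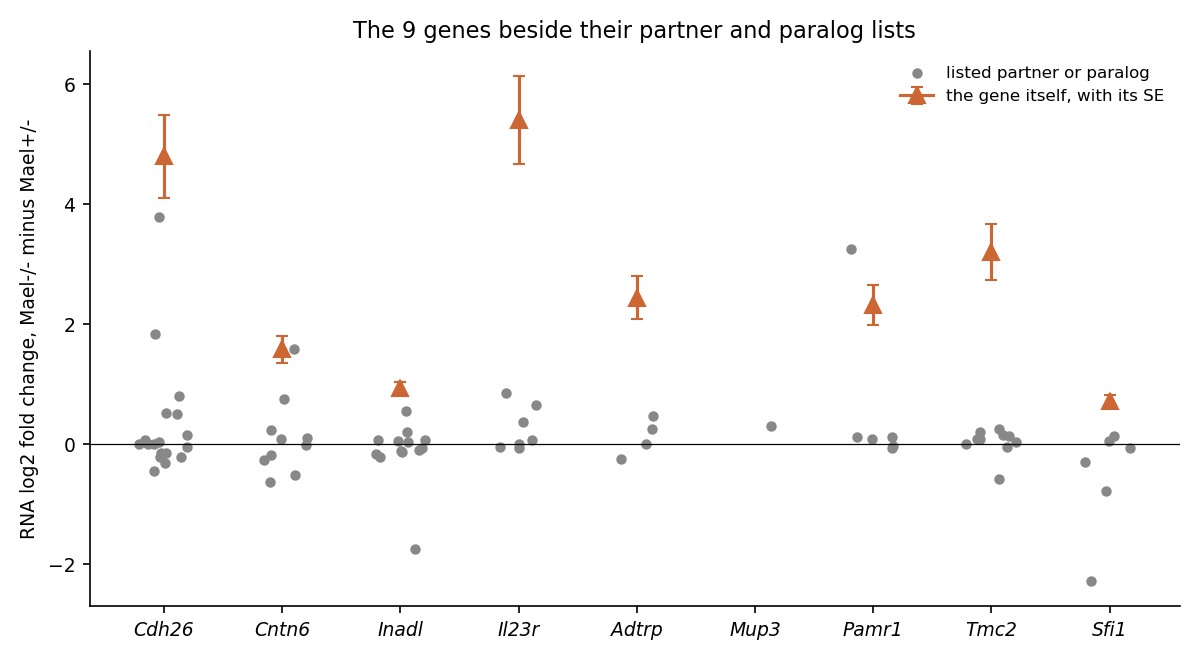
RNA log2 fold change (*Mael*-/- minus *Mael*+/-) of each gene (orange triangle with its SE) beside the tested members of its partner and paralog list (grey points). *Mup3* has no triangle because all of its *Mael*+/- libraries were at 0, and the 2 highest grey points are *Cdh12* in the *Cdh26* list and *C1rb* in the *Pamr1* list.

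Since several of the 9 genes are known from other tissues, markers of the cells a testis could hold were read in the same libraries, and 0 of them were called by edgeR in either assay. Lymphocyte markers, the cells known for *Il23r*, summed to 3.47 to 4.53 CPM in *Mael*+/- RNA and to 4.05 to 4.21 CPM in *Mael*-/- RNA. Hepatocyte markers, the cells known for *Mup3*, summed to 0.512 to 0.737 CPM and to 0.218 to 0.793 CPM. Of the 5 listed, 0 had enough counts to be tested. In both lists the groups overlapped. Macrophage markers overlapped, at 119 to 194 CPM and 178 to 196 CPM, with a median log2 fold change of 0.33 and 5 of 5 positive. Endothelial (34.9 to 48.3 against 42.0 to 48.6 CPM), Sertoli (5060 to 5800 against 5070 to 5720 CPM), Leydig (324 to 539 against 272 to 528 CPM) and spermatogonial markers (917 to 1090 against 923 to 996 CPM) overlapped as well. Peritubular markers did not, at 806 to 842 CPM against 903 to 951 CPM. Pachytene markers were lower in the 4 of 8 genes tested, with a median log2 fold change of -1.36. They summed to 383 to 938 CPM in the controls and to 338 to 418 CPM in *Mael*-/- RNA. Those of early meiotic prophase summed to 477 to 1440 CPM and to 501 to 776 CPM. In both of these lists the groups overlapped and the control libraries were far apart. The part of these marker levels in the levels of the 9 genes was not tested.

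Because L1 RNA was higher in the same libraries, young L1 copies near the genes were located by a 20-base sequence at the start of L1 ORF1, which has 1983 matches in the genome. Only exact matches were found, so copies that differ there or lack that part of L1 were missed. None of the 9 gene bodies held a match, and 2.07% of 14636 genes did. The genes were long, with a median of 71.5 kb against 24.6 kb, and 12.2% of genes of 100 kb or more held one. *Cntn6* (371 kb, chr6:104492662-104863406) and *Inadl* (324 kb, chr4:98395560-98719603) are of that length. *Il23r* (chr6:67422932-67491855, minus strand) had a match 3.5 kb before its start, on the opposite strand, and 2.41% of genes held a match inside or within 10 kb.

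The L1 copy beside *Il23r* pointed away from the gene. In the 1500 bases that precede the ORF1 matches, 883 words of 16 bases were shared by at least 5% of copies, and windows of 300 bases with at least 60% of positions starting such a word were taken as L1 5′ sequence. Such a stretch of 745 bases lay at chr6:67494629-67495373 on the plus strand, directly before the ORF1 match, and its near end was 2774 bases from the start of *Il23r*. The gene and the L1 copy thus lay head to head. The other 8 genes had no such stretch in the gene or in the 10 kb before it. Among 14626 genes, 36 had one in the 10 kb before the start (0.246%) and 349 had one inside (2.39%). Both searches were added after the data were seen and describe position, and whether this L1 copy plays a part in the level of *Il23r* was not tested.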

How the data were processed

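RNA and ribosome footprints of *Mael*+/- and *Mael*-/- testes were analysed from the deposited counts, 6 libraries per assay. The authors clipped the linker and a 5-base random tag from footprint reads, removed ribosomal RNA reads with Bowtie 1.2.2, mapped reads to mm10 with STAR 2.6.0c and counted reads with featureCounts (Subread 1.6.4), along the entire mRNA for RNA libraries and within coding sequence for footprints (versions per the submitters' processing notes and the methods). Whether duplicate reads were collapsed and whether strand was used in counting were not given in the sources used here, and counting intervals cover counting error only. The deposited counts are raw whole numbers. The authors' result tables hold DESeq2 fold changes, standard errors and p-values for RNA, footprints and translation efficiency, and were not used.

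Counts were tested here with edgeR 4.0.16 in R 4.3.3 (quasi-likelihood F-test, TMM within each assay, its filter on low counts, Benjamini-Hochberg adjustment over all genes tested, called at 0.05). CPM use TMM-scaled library sizes. Translation efficiency was the interaction of genotype and assay. Where all control libraries were at 0, folds were computed against 3 counts over the group. Alternatives were DESeq2 1.42.0, median-of-ratios size factors, other filters, a replicate block and leaving out each library. Scripts were tested on simulated data.

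RNA and footprint libraries of the same extract deviated together from their group means (r of 0.67 to 0.80 over 11235 genes in *Mael*+/- and 0.26 to 0.28 in *Mael*-/- extracts), so the interaction was also fitted with each extract as a term.

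Genes were matched to RefSeq (GRCm38.p6), with 14636 of the 14685 genes tested in RNA found. Lengths are of merged exons or merged coding sequence. Repeat rows carry no coordinates, so L1 copies were placed by a search of the genome. The 9 genes, the lists and the tests were chosen with earlier results of these data known. Named besides them were *Mael*, at most 2 of the most abundant genes of each partner list, and the 5 genes most like the set in profile. The 3 genes next to the threshold were named too, and for the marker lists summed levels are given in place of single genes. Outside this rule, *Il12rb1* was named as the partner subunit, and *Cdh12*, *C1rb*, *Cdh18*, *Cntnap4* and *Cetn1* after their values were seen. Genes that overlap *Inadl* or *Sfi1* were named by position.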

Additional observations from a re-analysis of the deposited data

How the results depend on the processing

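In RNA, whose values chose the genes, the count of 9 called stayed with DESeq2 (66 genes called in all), with median-of-ratios size factors (17), without a filter (18) and with the replicate block (50), and nothing is read from that. With a filter of at least 20 mean counts, which left 5 of the 9 to test, 3 were called, of 11 genes in all. Leaving out a library gave 0 to 9, with 2 to 64 genes called in all. In footprints, where 1 was called, DESeq2 gave 3, the replicate block 2 and the filter of at least 20 mean counts 0 of 2 tested. Leaving out a footprint library gave 0 to 3, with 2 to 17 genes called in all. Of the partner and paralog genes, with 0 called in RNA, DESeq2 gave 2, the replicate block 2 and leaving out a library 0 to 2, and in footprints 0 were called under any of these. In translation efficiency 0 genes were called in all under any alternative run. Of the 9, all were tested by DESeq2 and without a filter, and 6 in the other fits. No fold change of the 9 genes changed sign in the alternatives that gave one.

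The 2 genotypes share only replicate numbers. Samples with the same number deviated together with r of 0.29, -0.03 and 0.20 in RNA and of 0.09, 0.29 and 0.06 in footprints, so the block is given as an alternative. *Adtrp*, *Il23r* and *Mup3* had too few footprint counts for the filter and were not tested in footprints by the edgeR fit. With 1 or 3 control counts, the fold of *Il23r* and *Cdh26* could not be set within a factor of 10. The cause of the calls lost without single libraries was not tested.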

Other observations

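The genes whose RNA profile over the 6 libraries was most like the mean profile of the 9, of 13799 candidates, were *Hist1h2bm* (Pearson r = 0.9982), *Slc2a1* (0.9956), *Reg2* (0.9918), *Clec2g* (0.991) and *Sncaip* (0.988). The 6 libraries fall into the 2 genotypes, so such an r mostly restates the step between them and is given as a description. The step itself was small in the first 2. *Hist1h2bm*, a replication-dependent histone gene, had a log2 fold change of 0.39 in RNA and 0.26 in footprints, and *Slc2a1*, the glucose transporter GLUT1, had 0.32 and 0.34, and neither was called in RNA (adjusted p = 0.243 and 0.609, edgeR). *Reg2*, a secreted lectin-like protein of pancreas, was called (adjusted p = 0.00578, edgeR), as was the lectin gene *Clec2g* (0.00647).

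Of the listed partners, *Cdh18*, a cadherin of brain, was at 0.198 CPM in *Mael*+/- RNA and 0.696 CPM in *Mael*-/- RNA (log2 fold change 1.84, SE 0.42), and *Cntnap4*, a contactin-associated protein of interneurons, was at 0.201 and 0.637 CPM (1.59, SE 0.54). Neither was called (adjusted p = 0.432 and 0.846, edgeR), and both were singled out after their values were seen. *Cetn1*, the centrin of male germ cells, was at 3.58 CPM in *Mael*+/- and 0.73 CPM in *Mael*-/- RNA (adjusted p = 0.758, edgeR), the direction opposite to that of *Sfi1*. *Cetn1* too was not called and was singled out after its value was seen. In its list of 6 genes, 2 had a positive fold change.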
